A study of Mus musculus with 8 samples.

Results

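Oxidative phosphorylation is the last stage of aerobic respiration. Electrons from NADH enter at complex I (NADH dehydrogenase) and those from succinate at complex II (succinate dehydrogenase), pass through complex III to the small carrier cytochrome c, and reach oxygen at complex IV (cytochrome c oxidase), while complex V, the ATP synthase, uses the proton gradient built along the way. Most subunits are encoded in the nucleus and imported into mitochondria, where they are built together with a few subunits encoded by mitochondrial DNA. Among blood-forming cells, resting stem cells are known for leaning on glycolysis, and respiration gains weight as progenitors divide and commit.

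The genes described here were chosen by names given to the nuclear subunits. Taken were Nduf genes of the a, b, c, s and v series, Sdha to Sdhd and Uqcr genes. Cox4 to Cox8 subunit genes, Cyc1, Cycs and Atp5 genes were taken too. Pseudogene names were left out, and a mean of at least 1 TPM over the 4 RNA libraries was required. Ndufa4, Atp5s and Atp5sl were counted with their complex by name alone. TPM (transcripts per 1000000) is scaled to transcript length, so levels of different genes can be compared within a library. The names matched 86 of 24538 gene IDs, and 82 passed the level: 36 of complex I, 4 of complex II, 9 of complex III, cytochrome c itself, 15 of complex IV and 17 of complex V. Because the level was part of the choice, all 82 were also among the 13228 genes tested. The 4 names left out lay far below it, at mean levels of 0.0753 TPM (Cox7b2), 0.119 TPM (Cox8b), 0.126 TPM (Cox8c) and 0.337 TPM (Ndufa4l2), and the lowest members above it were Cox7a1 at 4.69 TPM, Atp5s at 6.51 TPM and Ndufs5 at 8.40 TPM. The 13 mitochondrially encoded subunits were not found by name among these gene IDs, so they were not analysed here.

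Control and knockout cells both came from mouse bone marrow LSK cells, a fraction rich in stem and early progenitor cells, of animals that carried CreER, a Cre recombinase switched on by tamoxifen. Controls had wild-type alleles, and knockouts had floxed Tcf7 and floxed Lef1, the genes of the transcription factors TCF1 and LEF1. Both were cultured on OP9-DL1 stroma, which displays the Notch ligand DLL1 and steers progenitors towards the T lineage, received 4-OH tamoxifen from day 3 to day 5, and were sorted on day 7 as cells negative for lineage antigens, CD4, CD8 and CD25, high in CD44 and positive for c-kit. For each genotype there were 2 RNA-seq and 2 ATAC-seq libraries, the latter marking open chromatin. Nothing in the labels says that replicates were separate animals or cultures, so the p-values measure only the spread between these libraries, which may be technical.

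Tcf7 RNA was at 518.5 and 509.6 TPM in control, and only 13.2 and 12.4 TPM were left in knockout. Lef1 was at 1.10 to 1.66 TPM in all 4 libraries and differed by less than their spread (limma adjusted p = 0.803), so its RNA level does not separate the labels. Of the genes of the gate, Cd44 was at 94.0 to 109 TPM. Cd4, at 0 to 0.319 TPM, and Cd8a, at 0.823 to 1.98 TPM, were low. Kit was at 250.7 and 237.9 TPM in control and lower, at 156.8 TPM, in both knockout libraries. Ptprc, a gene of blood cells, was at 207 and 231.9 TPM in control and at 129.2 and 141.5 TPM in knockout. Il2ra, the gene of the CD25 antigen that the sort excluded, was at 135.9 and 133.1 TPM in control and at 0.658 and 0.393 TPM in knockout. Libraries of the 2 genotypes also differed in genes of other cells. Of 13 stromal markers 9 were called higher and 1 lower in knockout, with summed levels of 1094 and 1116 TPM in control and of 2401 and 1986 TPM in knockout. All 5 adipocyte markers that could be tested were higher (sums 65.8 to 78.7 TPM against 264.4 to 275.9 TPM), 8 of 9 mast cell and basophil markers were higher and 1 lower (238.9 to 240.9 TPM against 474.9 to 481.8 TPM), while all 8 T-lineage markers were lower (431.2 to 435.2 TPM against 36.9 to 41.3 TPM). Of 10 cell cycle genes 9 were higher (1604 to 1610 TPM against 2035 to 2059 TPM). Beside these counts, 25.2% of all genes tested were called higher and 14.7% lower. At a mean of at least 50 TPM the shares were 44.2% and 21.0%. Of the genes on these 5 lists none was at 0 in all 4 libraries. Dll1, the ligand gene that the stromal line carries, was at 235.9 and 240.9 TPM in control and at 671.1 and 534.2 TPM in knockout. Of 7 erythroid genes 2 could be tested and none was called, with sums of 114.5, 22.1, 16.2 and 4.87 TPM and both Hba-a1 and Hba-a2 at 0. The part of these genes in the results below was not tested. Read counts were not used, so depth is known only from the ratio of coverage to FPKM, which follows a library's depth and was 2.41, 2.12, 2.64 and 2.63.

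Promoters of several members are printed here because these genes include the 4 largest called changes (Cycs, Ndufa4, Ndufa5 and Atp5k), 1 of the most abundant members (Atp5h) and 1 that was lower in knockout (Uqcrh). Nuclear genes of the respiratory chain are known targets of the factors NRF1, GABP (an ETS factor) and YY1. The lines give the 150 bases before the RefSeq gene start, 5′ to 3′ on the minus strand of GRCm38.p6 (the assembly of mm10), with letters matching the NRF1 motif GCGCANGCG or the ETS motif CCGGAAG on either strand in capitals. Atp5h encodes a peripheral stalk subunit of the ATP synthase (chr11:115419920-115420069), Atp5k its membrane subunit e (chr5:108434400-108434549), Cycs cytochrome c (chr6:50566570-50566719), Ndufa4 a subunit named after complex I (chr6:11907451-11907600), Ndufa5 an accessory subunit of complex I (chr6:24527691-24527840) and Uqcrh the hinge subunit of complex III (chr4:116075071-116075220).
Atp5h: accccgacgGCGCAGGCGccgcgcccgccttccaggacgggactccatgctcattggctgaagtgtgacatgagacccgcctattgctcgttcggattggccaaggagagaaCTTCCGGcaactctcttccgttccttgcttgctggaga
Atp5k: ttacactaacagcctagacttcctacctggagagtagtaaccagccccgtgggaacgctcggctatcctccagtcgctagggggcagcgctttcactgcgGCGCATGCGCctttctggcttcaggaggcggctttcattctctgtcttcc
Cycs: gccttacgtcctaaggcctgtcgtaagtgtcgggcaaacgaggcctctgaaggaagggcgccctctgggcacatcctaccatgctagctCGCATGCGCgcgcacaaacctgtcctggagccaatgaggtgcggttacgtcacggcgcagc
Ndufa4: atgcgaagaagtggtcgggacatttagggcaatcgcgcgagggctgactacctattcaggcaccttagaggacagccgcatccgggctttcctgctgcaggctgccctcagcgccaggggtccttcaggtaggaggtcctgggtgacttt
Ndufa5: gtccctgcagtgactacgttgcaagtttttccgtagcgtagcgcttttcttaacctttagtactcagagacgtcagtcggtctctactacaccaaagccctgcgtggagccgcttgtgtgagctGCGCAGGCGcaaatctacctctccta
Uqcrh: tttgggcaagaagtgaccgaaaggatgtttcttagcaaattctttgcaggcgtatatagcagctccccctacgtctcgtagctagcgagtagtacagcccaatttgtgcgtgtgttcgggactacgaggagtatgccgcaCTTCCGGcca
The NRF1 letters of Cycs began 61 bases before its start and those of Ndufa5 26 bases before. In Atp5k matches on the 2 strands began 50 and 49 bases before the start and overlap, since this motif is nearly its own reverse complement. Atp5h held both motifs, at 141 (NRF1) and 38 bases (ETS), and Uqcrh only the ETS letters within the stretch shown, 10 bases before its start. The stretch of Ndufa4 held none of these letters. A match is a description of letters, not a site.

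RNA of the respiratory chain was more abundant in the knockout libraries. Of the 82 members, 65 (79.3%) were called higher, 3 lower and 14 were not called, where a call is a Benjamini-Hochberg adjusted p under 0.05 from limma over all 13228 genes. Among all genes tested, 25.2% were called higher and 14.7% lower. Abundant genes were called more often: at a mean of at least 50 TPM, 44.2% of 3029 genes were higher and 21.0% lower, and of the 71 members at that level 60 (84.5%) were higher and 2 lower. The median change of the members was 0.46 on the log2(TPM + 1) scale, against 0.09 over all genes tested, and 75 of 82 changes were positive. In bulk libraries a change in the share of a cell type and a change in RNA per cell cannot be told apart.

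The rise was mostly moderate. Only Cycs, Ndufa4 and Ndufa5 among the called members changed by 1 or more on the log2 scale, and 32 of the 65 called higher changed by less than 0.5. Both knockout libraries lay above both control libraries for 71 of the 82 members and below them for 5, against 44.4% and 29.0% of all genes tested. In all 14 fits, with every alternative scaling, unit, filter and left-out library, each of the 65 kept a positive change, but the call itself was kept in all 4 fits without 1 library by 43 of them and with no filter on low genes by 25.

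**Figure D1:**
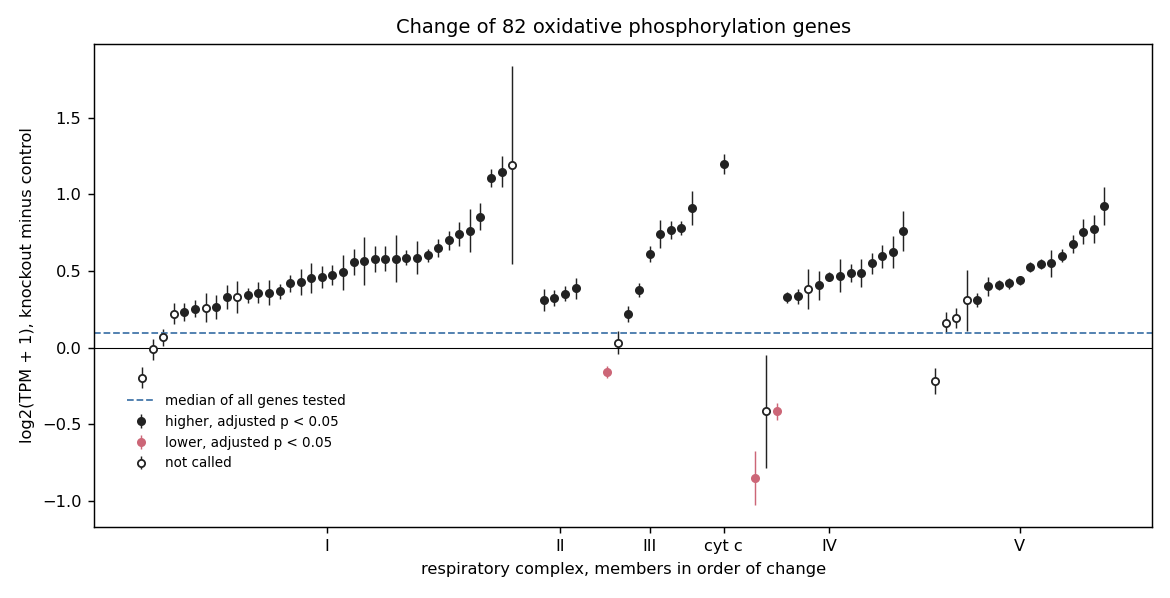
Each point is 1 of the 82 members, with its change in log2(TPM + 1) between knockout and control (vertical axis) and 1 standard error either side, in order of change within each respiratory complex. Filled black points were called higher (65), red points lower (3) and open points not called (14); the dashed line is the median of all genes tested, 0.09.

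Summed over the 82 genes, the members held 12452 and 12370 TPM in the control libraries and 17050 and 17079 TPM in the knockout libraries. The group means were 12411 ± 58.0 TPM and 17064 ± 20.4 TPM (SD, n = 2), a ratio of 1.37, and the libraries did not overlap. As a share of all RNA measured this was 1.25% and 1.24% in control and 1.71% in both knockout libraries. A single non-coding RNA, Rpph1, took 19.4% and 19.2% of all TPM in control and 15.2% and 15.8% in knockout, and with it left out of the total the members' shares were 1.54%, 1.53%, 2.01% and 2.03%. With 2 libraries a group an exact permutation test cannot reach 0.05, so the sums carry no test.

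**Figure D2:**
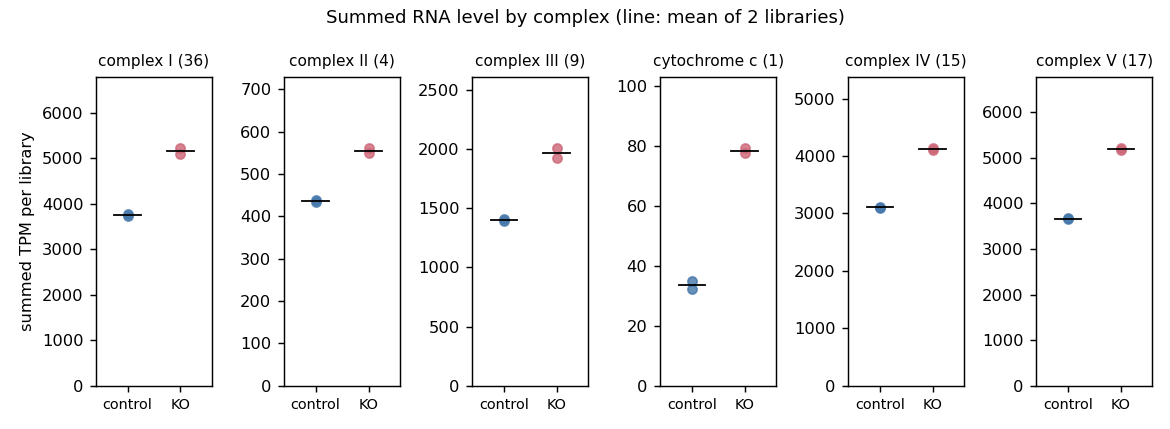
Summed TPM (vertical axis, from 0, with a scale of its own in each panel) of the members of each complex in each library, with the number of genes in brackets; points are libraries and lines the mean of 2. KO stands for knockout, and in each panel both knockout libraries lie above both control libraries.

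By complex, the makeup of the chain changed little beside its total. Complex I made up 30.4% and 30.2% of member RNA in control and 29.9% and 30.6% in knockout, and complex III 11.3% and 11.3% against 11.8% and 11.3%. Complex V came to 29.4% and 29.7% in control and 30.4% and 30.5% in knockout, complex IV to 25.1% in both control libraries against 24.2% and 24.0%, and complex II to 3.49% and 3.55% against 3.29% and 3.22%. Cytochrome c, a single gene beside these sums, was at 0.280% and 0.262% of member RNA in control and 0.465% and 0.455% in knockout. Single genes within a sum changed by similar folds, as Ndufa4 (2.22) and Ndufa5 (2.17) of the complex I group, against 2.34 for Cycs.

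Complex I, the entry point for NADH, had 29 of 36 members higher, none lower and 7 not called, with a median change of 0.47. Its summed level was 3788 and 3730 TPM in control and 5096 and 5222 TPM in knockout, 1.37-fold higher. Of the 7 core subunits, which include the carriers of the flavin and the iron-sulfur clusters, 6 were called higher. Their changes ran from 0.22 to 0.42 with a median of 0.36. The other 29 genes, Ndufa4 among them, were counted by name as accessory subunits, which surround and stabilise the core. Their changes ran from −0.19 to 1.19 with a median of 0.57, and 23 were called higher. The upper end was Ndufs5, which was not called, and the highest called change was 1.15 in Ndufa4. The sets differ in size, so their ranges were not compared.

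The largest called changes of the complex I group were in genes counted as accessory subunits. Ndufa5 (chromosome 6, 24518664 to 24527687, mm10), whose promoter is printed above, was at 96.2 and 95.0 TPM in control and at 197.6 and 216.3 TPM in knockout, 2.17-fold higher (log2 change 1.10, SE 0.057, limma adjusted p = 0.000369). Ndufa4 (chromosome 6, 11900373 to 11907446) was counted with complex I by its name alone, and its protein has been found in complex IV. It was at 73.5 and 90.7 TPM in control and at 179 and 185.8 TPM in knockout, 2.22-fold higher (log2 change 1.15, SE 0.10, limma adjusted p = 0.00120). Knockout libraries were the higher ones in both genes, with a wide gap between the groups. Ndufa4l2, the hypoxia-associated relative of Ndufa4, was listed at 1.35 TPM in 1 control library and at 0 in the other 3 libraries.

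Ndufs5, a small accessory subunit, had the highest estimate of the complex and the least certain. It was at 6.83 and 2.20 TPM in control and at 19.0 and 5.52 TPM in knockout, so that the groups overlapped and the libraries within each group differed by more, as a ratio, than the group means (log2 change 1.19, SE 0.64, limma adjusted p = 0.196). Ndufb11, a membrane-arm subunit, was at 114.5 and 126.1 TPM in control and at 115.4 and 123.2 TPM in knockout (log2 change −0.01, limma adjusted p = 0.909), with overlapping groups.

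The most abundant gene of complex I went the other way without reaching a call. Ndufa6, an accessory subunit of the LYR family, was at 336.3 and 307.5 TPM in control and at 295.5 and 267 TPM in knockout, with both knockout libraries below both controls (log2 change −0.19, SE 0.068, limma adjusted p = 0.0717). It was called lower with FPKM in place of TPM, with quantile or median-ratio scaling, with Rpph1 left out and with changes centred on their median, so this gene sits at the threshold. Ndufb10, next in abundance, was higher at 315.7 and 283.3 TPM in knockout against 207.4 and 222.6 TPM in control (log2 change 0.47, limma adjusted p = 0.00439).

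Complex II, which is also an enzyme of the citric acid cycle and has no mitochondrially encoded subunit, had all 4 genes called higher, by 1.25- to 1.31-fold. Sdha, the flavoprotein, was at 178 and 188.5 TPM in control and at 237.8 and 222.2 TPM in knockout (limma adjusted p = 0.00729). Sdhb, the iron-sulfur subunit, was at 105.5 and 101.5 TPM against 127.8 and 144 TPM (limma adjusted p = 0.00961). The membrane anchors were Sdhc, at 77.2 and 78.3 TPM against 99.8 and 99.5 TPM (limma adjusted p = 0.00405), and Sdhd, at 73.5 and 71.1 TPM against 95.4 and 84.9 TPM (limma adjusted p = 0.0214). Control and knockout libraries did not overlap for any of the 4. Only Sdhc kept its call without each single library: Sdha lost it without control replicate 1 (limma adjusted p = 0.0515), Sdhb without either control library (0.0518 and 0.0668) and Sdhd without control replicate 1, control replicate 2 or knockout replicate 1 (0.0750 to 0.107).

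Complex III had 7 of 9 members higher, 1 lower and 1 not called, with a median change of 0.61, and its summed level was 1.40-fold higher. Cyc1, the cytochrome c1 that hands electrons to cytochrome c, was at 52.0 and 55.1 TPM in control and at 93.5 and 90.6 TPM in knockout, 1.72-fold higher (log2 change 0.77, SE 0.059, limma adjusted p = 0.000826). The small subunits Uqcrq, at 72.6 and 85.6 TPM against 162 and 137.4 TPM (log2 change 0.91, limma adjusted p = 0.00283), and Uqcr10, at 107.7 and 107 TPM against 181 and 189.5 TPM (log2 change 0.78, limma adjusted p = 0.000467), showed the largest changes. In each of these 3 genes both knockout libraries stood well above both controls. Uqcr11, another small subunit, was at 193.2 and 158.9 TPM against 297.3 and 290.3 TPM (log2 change 0.74, limma adjusted p = 0.00313). Uqcrb, the ubiquinone-binding protein and most abundant member of the complex, was 1.53-fold higher at 662.9 and 607.1 TPM against 418.5 and 411.3 TPM (limma adjusted p = 0.000964).

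Another pair of complex III genes did not follow. Uqcrfs1, the Rieske iron-sulfur protein and a catalytic subunit, was at 91.9 and 105.1 TPM in control and at 99.0 and 102.2 TPM in knockout, with both knockout values between the controls (log2 change 0.03, limma adjusted p = 0.747). Its sign turned under quantile and median-ratio scaling, with Rpph1 left out, with centred changes and without control replicate 1. Uqcrh, the hinge protein beside cytochrome c1 (chromosome 4, 116066965 to 116075070), was at 238.4 and 236.1 TPM in control and at 209.7 and 215.1 TPM in knockout (log2 change −0.16, SE 0.039, limma adjusted p = 0.0248). The groups did not overlap, but the call was lost whenever any 1 library was left out (limma adjusted p = 0.0540 to 0.102).

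Cytochrome c, the mobile carrier between complexes III and IV that also triggers caspases once released into the cytosol, showed the largest called change of the 82. Cycs (chromosome 6, 50562563 to 50566474) was at 34.8 and 32.4 TPM in control and at 79.2 and 77.7 TPM in knockout, or 33.6 ± 1.74 TPM and 78.5 ± 1.05 TPM (SD, n = 2). The difference was 2.34-fold (log2 change 1.20, SE 0.066, limma adjusted p = 0.000418), and the knockout libraries lay far above the controls. This call held in each of the other 13 fits.

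**Figure D3:**
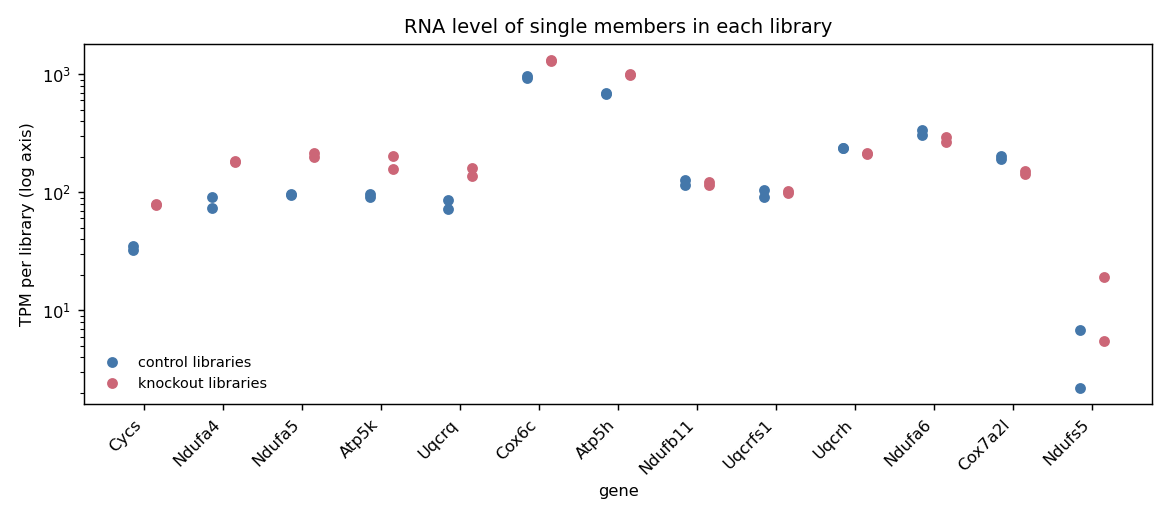
TPM of 13 members in each RNA library (vertical log axis; blue, control; red, knockout). Cycs, Ndufa4, Ndufa5, Atp5k, Uqcrq, Cox6c and Atp5h lie higher in both knockout libraries, Ndufb11, Uqcrfs1 and Ndufs5 overlap, and Uqcrh, Ndufa6 and Cox7a2l lie lower.

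Complex IV, which reduces oxygen, had 11 of 15 members higher, 2 lower and 2 not called, with a median change of 0.46 and a summed level of 3121 and 3100 TPM in control against 4133 and 4099 TPM in knockout. Cox6c, the most abundant of all 82 genes, was at 932.3 and 961.2 TPM in control and at 1301 and 1312 TPM in knockout, 1.38-fold higher (log2 change 0.46, SE 0.031, limma adjusted p = 0.000601). Several subunits of this complex are encoded by pairs of genes, a common form and one known from muscle, heart, lung or testis, so their balance can be read within each library without regard to scaling.

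For subunit 4, the common Cox4i1 was at 403.3 and 408.7 TPM in control and at 534.7 and 490.8 TPM in knockout (limma adjusted p = 0.00502). Its lung- and hypoxia-associated form Cox4i2 was at 14.5 and 13.1 TPM against 20.1 and 16.5 TPM (limma adjusted p = 0.0685), and per 100 Cox4i1 transcripts it stood at 3.59 and 3.20 in control and 3.76 and 3.37 in knockout, with overlap. For subunit 6b, the common Cox6b1 was at 135.3 and 149.9 TPM against 205.1 and 226.4 TPM (limma adjusted p = 0.00297), and the testis form Cox6b2 at 7.36 and 6.71 TPM against 12.2 and 13.0 TPM (limma adjusted p = 0.00782). Both forms were higher in both knockout libraries, with Cox6b2 at 5.44 and 4.48 per 100 Cox6b1 in control and 5.95 and 5.76 in knockout. Without control replicate 2 the call of Cox6b2 was lost (limma adjusted p = 0.0506). Cox8a was higher at 420.5 and 431.4 TPM against 344.1 and 334.2 TPM (limma adjusted p = 0.00226), while Cox8b was listed at 0.477 TPM in 1 knockout library and Cox8c at 0.503 TPM in 1 control library, each at 0 in the other 3.

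Subunit 6a changed its balance. The common Cox6a1 was at 163.4 and 161.9 TPM in control and at 238.5 and 195.2 TPM in knockout (log2 change 0.41, limma adjusted p = 0.0228). Cox6a2, the heart and skeletal muscle form (chromosome 7, 128205435 to 128206366), was at 14.0 and 14.6 TPM in control and at 6.32 and 8.89 TPM in knockout (log2 change −0.85, SE 0.18, limma adjusted p = 0.0154). Per 100 Cox6a1 transcripts there were 8.60 and 9.02 of Cox6a2 in control and 2.65 and 4.56 in knockout, so the knockout libraries lay lower on this ratio too. Both calls rest on the pair of control libraries: without control replicate 1 or 2 the adjusted p was 0.108 and 0.115 for Cox6a1 and 0.0819 and 0.0930 for Cox6a2. Of 7 muscle genes none reached 1 TPM on average, and their sum was 0.960 to 2.60 TPM.

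Subunit 7a had its main forms move apart. Cox7a2, the common form, was at 46.4 and 39.7 TPM in control and at 71.1 and 62.6 TPM in knockout (log2 change 0.63, limma adjusted p = 0.00732). Cox7a2l, known as a factor that joins complexes III and IV into supercomplexes (chromosome 17, 83501917 to 83514333), was at 202.4 and 189.7 TPM in control and at 151.4 and 142.3 TPM in knockout, 196.1 ± 8.98 TPM against 146.9 ± 6.41 TPM (SD, n = 2; log2 change −0.41, SE 0.055, limma adjusted p = 0.00378). The groups do not overlap in either gene, and the directions are opposite. There were 4.37 and 4.78 Cox7a2l transcripts per Cox7a2 transcript in control and 2.13 and 2.27 in knockout. Of the 3 genes called lower, only Cox7a2l kept its call without each single library. The muscle form Cox7a1 was low, at 5.09 and 5.54 TPM against 5.90 and 2.24 TPM, and was not called (limma adjusted p = 0.411), and its direction rests on 1 knockout library: the log2 change was −0.96 without knockout replicate 1 (limma adjusted p = 0.0461) and 0.13 without knockout replicate 2 (limma adjusted p = 0.660).

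**Figure D4:**
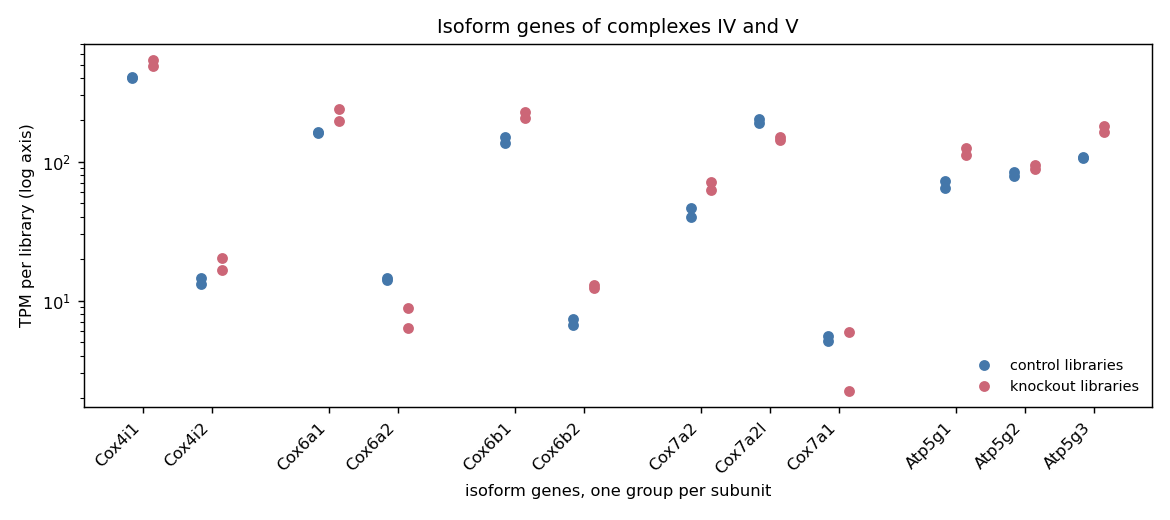
TPM in each RNA library (vertical log axis) of genes that encode alternative forms of 1 subunit of complex IV or of the c ring of complex V; blue, control; red, knockout. Cox6a2 and Cox7a2l lie lower in both knockout libraries while Cox6a1 and Cox7a2 lie higher.

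Complex V, the ATP synthase, had 13 of 17 members higher, none lower and 4 not called, with a median change of 0.44 and the largest change in summed level of the 5 numbered complexes, 3665 and 3674 TPM against 5175 and 5207 TPM (1.42-fold). Both subunits of the catalytic F1 head were higher: Atp5a1 was at 487.4 and 485.1 TPM in control and at 656.7 and 662.7 TPM in knockout (limma adjusted p = 0.000665), and Atp5b was at 413.4 and 419 TPM against 613.4 and 600.8 TPM (limma adjusted p = 0.000479). Of the central stalk, Atp5c1 and Atp5e were called higher and Atp5d was not. All 4 peripheral stalk subunits were higher, led in abundance by Atp5h at 678.1 and 698.3 TPM against 1002 and 981.6 TPM (log2 change 0.53, SE 0.032, limma adjusted p = 0.000513).

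All 3 accessory subunits of the membrane part were higher, and Atp5k changed most of the whole complex, from 96.2 and 91.3 TPM in control to 156.4 and 203.9 TPM in knockout (log2 change 0.92, SE 0.13, limma adjusted p = 0.00397). The c ring, the rotor through which protons pass, is built from 1 mature protein encoded by 3 genes that differ in their import sequences. Atp5g1 was at 64.1 and 72.8 TPM in control and at 124.7 and 110.8 TPM in knockout (log2 change 0.77, limma adjusted p = 0.00243), and Atp5g3 at 106.7 and 107.6 TPM against 163.8 and 180.2 TPM (log2 change 0.68, limma adjusted p = 0.00117). Atp5g2 was at 78.2 and 84.8 TPM against 94.4 and 88.4 TPM (log2 change 0.16, limma adjusted p = 0.102). Of all c-ring RNA, Atp5g2 gave 31.4% and 32.0% in control and 24.7% and 23.3% in knockout, with no overlap, and Atp5g1 25.8% and 27.5% against 32.6% and 29.2%.

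A pair of genes counted with complex V carry the Atp5 prefix without being subunits of the enzyme. They were 2 of its 4 members not called. Atp5sl, since renamed for a role in the assembly of complex I, was at 24.6 and 26.0 TPM in control and at 22.1 and 21.2 TPM in knockout (log2 change −0.22, limma adjusted p = 0.0986), and was called lower under median-ratio scaling, with Rpph1 left out and with centred changes. Atp5s was at 6.51 and 4.92 TPM against 8.20 and 6.42 TPM, with overlap (limma adjusted p = 0.266).

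Subunits and partners of the chain whose names the rule does not match moved alike. Ndufab1, the mitochondrial acyl carrier protein bound to complex I, was at 156.9 and 176.9 TPM in control and at 274.8 and 229.4 TPM in knockout (log2 change 0.59, limma adjusted p = 0.00845), a call lost without control replicate 1. Atpif1, the inhibitor of the ATP synthase, was at 509.3 and 501.6 TPM against 692.9 and 661 TPM (log2 change 0.42, limma adjusted p = 0.00118). With Usmg5, a small membrane subunit of the synthase, and Tmem261, a complex I assembly protein, all 4 such genes were called higher, with a median of 0.48. The share called higher was 25.2% over all genes tested and 44.2% at a mean of at least 50 TPM.

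Assembly factors, which insert cofactors and join subunits but are absent from the finished complexes, were read from the same fit. Of 48 tested, 19 (39.6%, against 25.2% over all genes tested) were higher, none lower and 29 not called, with a median of 0.35. Their median level was 19.5 TPM, against 134.6 TPM for the members, so the counts of the 2 groups were not compared. The counts were 7 of 15 for complex I, 2 of 4 for complex II, 3 of 6 for complex III, 6 of 20 for complex IV and 1 of 3 for complex V. The total fell to 10 without control replicate 1 or 2, to 13 without knockout replicate 1 and to 16 without knockout replicate 2. Uqcc2, which helps make cytochrome b for complex III, changed most, from 100.6 and 101.9 TPM in control to 221.9 and 207.1 TPM in knockout (log2 change 1.08, SE 0.051, limma adjusted p = 0.000307). Ndufaf2 of complex I (log2 change 0.88, limma adjusted p = 0.00301), Coa3 of complex IV (0.77, 0.00137), and Tmem70 of complex V (0.62, 0.00850) were the highest called genes of their lists, and these held without each single library. Sdhaf4 of complex II (0.57, 0.0477) lost its call without control replicate 1, control replicate 2 or knockout replicate 1. The lowest called changes were in Acad9 of complex I (0.49), Sdhaf1 of complex II (0.37), Bcs1l of complex III (0.44) and Coa5 of complex IV (0.32), and each of these calls was lost without at least 1 library, control replicates 1 and 2 among them.

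Citric acid cycle enzymes, which supply NADH and succinate, were called higher in 9 of 14 cases (64.3%) and lower in none, with a median of 0.37. Over all genes tested 25.2% were called higher, and 44.2% of those at a mean of at least 50 TPM. The list had a median level of 106.5 TPM, and its median change was 0.34 to 0.39 without any 1 library. Idh3a, the catalytic subunit of NAD-dependent isocitrate dehydrogenase, changed most, from 76.5 and 72.3 TPM to 139.7 and 136.3 TPM (log2 change 0.88, SE 0.053, limma adjusted p = 0.000479). Its partners Idh3b and Idh3g changed by 0.01 each and were not called.

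Genes that maintain and transcribe mitochondrial DNA were called higher in 4 of 14 cases and lower in none, with a median of 0.16. That share, 28.6%, was near the 25.2% called higher over all genes tested. Without 1 library the count was 3 (control replicate 1), 1 (control replicate 2) or 2 (either knockout replicate). Top1mt, the mitochondrial topoisomerase, was at 8.67 and 10.1 TPM in control and at 21.3 and 21.1 TPM in knockout (log2 change 1.10, SE 0.12, limma adjusted p = 0.00195). Tfam, which packages mitochondrial DNA and starts its transcription, was at 30.5 and 31.8 TPM against 37.6 and 39.1 TPM (log2 change 0.29, limma adjusted p = 0.0267). The call of Tfam was lost whenever any 1 library was left out (limma adjusted p = 0.0743 to 0.108).

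Nuclear regulators of the respiratory genes showed no shared direction at the RNA level. Of 10 tested, 5 changes were positive, with a median of −0.01. Calls numbered 2 higher (20%) and 1 lower (10%), near the 25.2% and 14.7% over all genes tested. The coactivators Ppargc1b, at 7.16 and 7.74 TPM in control and 14.3 and 12.2 TPM in knockout (log2 change 0.75, limma adjusted p = 0.0102), and Pprc1, at 33.2 and 30.3 TPM against 52.6 and 52.2 TPM (log2 change 0.71, limma adjusted p = 0.00192), were the higher ones. Ppargc1a stayed under 1 TPM in every library and was not tested. It was at 0.405 and 0.318 TPM in control and at 0.912 and 0.997 TPM in knockout, without overlap. Nrf1 was at 51.2 and 53.9 TPM against 50.4 and 58 TPM, Gabpa at 55.9 and 52.2 TPM against 55.4 and 53.8 TPM, Yy1 at 97.0 and 101.3 TPM against 96.8 and 103.7 TPM, and Esrra at 10.3 and 10.9 TPM against 10.4 and 9.94 TPM, all with overlapping groups. Gabpb1, the partner of Gabpa, was lower at 45.5 and 49.8 TPM against 57.3 and 58.8 TPM (log2 change −0.28, limma adjusted p = 0.0279). Ppargc1b and Gabpb1 both lost their calls without control replicate 1, control replicate 2 or knockout replicate 1 (limma adjusted p = 0.0503 to 0.0632 and 0.0941 to 0.121).

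Other families of many abundant, jointly expressed genes were read the same way. Over all genes tested 25.2% were called higher and 14.7% lower, and at a mean of at least 50 TPM 44.2% and 21.0%. Of 78 mitochondrial ribosomal protein genes, 60 (76.9%) were higher and none lower, with a median of 0.46. Of 39 proteasome subunit genes, 29 (74.4%) were higher and none lower, with a median of 0.43. The count of the first fell to 33 to 37 without any 1 library and that of the second to no fewer than 27. Cytosolic ribosomal protein genes differed: 6 of 83 (7.23%) were higher and 32 (38.55%) lower, with a median of −0.10. Their median was negative in all 14 fits. Lower calls among them numbered 12 and 7 without control replicate 1 and 2, 22 and 20 without knockout replicate 1 and 2, and 52 under median-ratio scaling. Per transcript of mitochondrial ribosomal proteins there were 3.29 member transcripts in both control libraries and 3.19 and 3.28 in knockout. Per proteasome transcript there were 2.78 and 2.69 in control and 2.85 and 2.87 in knockout. Per 100 cytosolic ribosomal protein transcripts, the members counted 7.59 and 7.46 in control and 11.1 and 11.1 in knockout. No test of the members against these families was made.

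**Figure D5:**
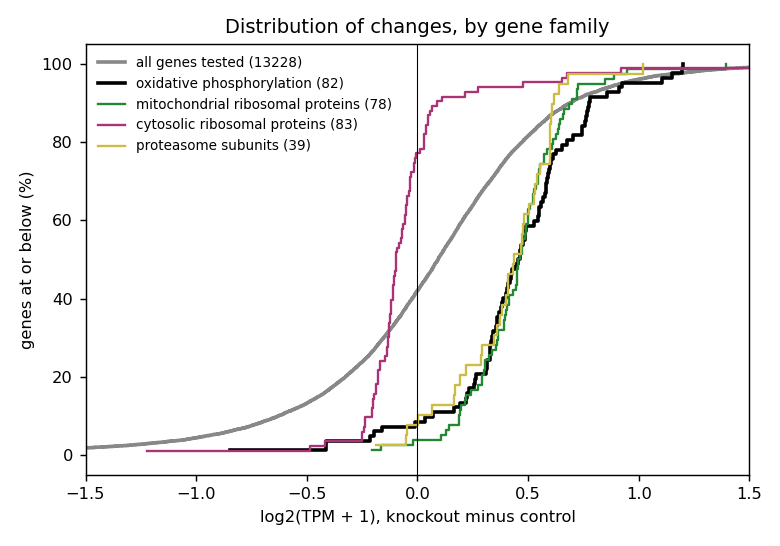
Cumulative share of genes (vertical axis, %) at or below each change in log2(TPM + 1), knockout minus control (horizontal axis), for the 82 members, 3 other gene families and all 13228 genes tested. The curves of the members, the mitochondrial ribosomal proteins and the proteasome cross their medians between 0.43 and 0.46, and that of the cytosolic ribosomal proteins at −0.10.

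Chromatin at the members' gene starts was open in both genotypes. A peak overlapped the 500 bases either side of the start in all 4 lists for 80 of 82 members (97.6%), against 85.2% of the 13228 genes tested. The exceptions were Cox6a2, the muscle form that was lower in knockout, and Atp5f1, whose start in the expression tables lies apart from the RefSeq start. The peak caller's own fold enrichment at these 80 promoters had medians of 16.9 and 17.2 in control and 17.2 and 17.4 in knockout, against 13.96, 13.96, 14.06 and 14.2 over all tested genes with such a peak. Since the depth of the ATAC libraries is unknown, genotypes were not compared by a test. The members had a median RNA level of 134.6 TPM, against 18.8 TPM for all genes tested. No background of like level was taken for peaks, nor for the motif letters and opposite-strand starts below.

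Members with different changes in RNA can be set side by side at their promoters. Cycs, with the largest called rise, had peaks of 18.4 and 17.6 fold in control and 19.0 and 18.6 fold in knockout. Cox7a2l had 13.1 and 12.4 fold against 13.4 and 12.7 fold, and Uqcrh 8.56 and 8.72 fold against 9.32 and 9.11 fold. Cox6c, the most abundant gene, had peaks of 7.13 and 7.08 fold in control and 8.38 and 6.96 fold in knockout, with the lowest −log10 q of the 80 promoters in every list (19.4 to 33.0).

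Of the 82 members, 68 had a promoter of 300 bases (250 before and 50 after the start) in the RefSeq table. The NRF1 letters GCGCANGCG were found on either strand in 20 of 68 (29.4%), against 6.25% of all 32851 promoters in the table and 13.9% of those of 10190 tested genes. The ETS letters CCGGAAG were in 15 (22.1%, against 8.86% and 18.7%), and the YY1 letters AAGATGGCG in 7 (10.3%, against 1.40% and 3.24%). In all, 35 (51.5%) held at least 1 of the 3, against 14.8% of all promoters and 31.6% of those of tested genes. The SP letters GGGCGG were in 28 (41.2%, against 35.7% and 64.0%). The TCF/LEF letters CTTTGAT were in 1, that of Ndufa5 (1.47%, against 3.73% and 2.50%).

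Motif letters were found in members that were called higher and in those that were not. The NRF1 letters were in 17 of 53 promoters of members called higher (32.1%) and in 3 of the 15 others (20.0%), and the ETS letters in 13 (24.5%) and 2 (13.3%). YY1 letters were in 5 (9.43%) and 2 (13.3%). Ndufa6 and Ndufs5 were among the others with NRF1 letters, and Uqcrh among those with ETS letters.

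Some members face a neighbour across a shared start region. An opposite-strand gene start lay within 1000 bases upstream for 21 of 82 members (25.6%), against 13.9% of all genes tested. The partners did not all move with the members. Timm8b, an import chaperone gene beside Sdhd, was higher by 0.35 on the log2 scale (limma adjusted p = 0.00516) and Mrpl47 beside Ndufb5 by 0.50 (limma adjusted p = 0.0246). Eef1b2 beside Ndufs1 was lower (log2 change −0.17, limma adjusted p = 0.0119) while Ndufs1 was higher by 0.33, and Lrrc41 beside Uqcrh was higher by 0.37 (limma adjusted p = 0.0151) while Uqcrh was lower. Whether counting used strand was not given in the sources used here, so reads where such genes overlap cannot be told apart, and many of these genes have near-identical processed copies whose reads may have been split.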

How the data were processed

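RNA-seq and ATAC-seq libraries of control and Tcf7/Lef1 knockout progenitors were analysed, with 2 libraries per genotype and assay, grouped by their titles. Per the submitters' processing notes the authors used HISAT2 and StringTie for RNA and Bowtie2 and MACS2 for ATAC, on mm10. Versions, settings and strand use were not given in the sources used here. The deposited TPM column sums to 1000000 per library. The deposited FPKM column served as an alternative, and the deposited coverage column (a signal per base) only for relative depth. The deposited peak lists, 1 per library, give a fold enrichment (a ratio) and −log10 q from the authors' peak caller.

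TPM of repeated gene IDs was summed. Changes in log2(TPM + 1) were tested with limma 3.58.1 (R 4.3.3; lmFit, eBayes with trend, genotype only) over 13228 genes with a mean of at least 1 TPM. The threshold was a Benjamini-Hochberg adjusted p under 0.05, and the code was tested on simulated data. A fold is a ratio of mean TPM. The log2 scale with a pseudocount of 1 understates the change of low genes. Depth per gene is unknown, so no counting intervals are given.

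The members, the lists and the rule for named genes were chosen with earlier results of these data known. Named were, per complex, the 2 lowest and 2 highest changes and the 2 most abundant members, all of complex II, cytochrome c, the isoform sets and the extremes among called genes of each list, of which 1 is not reported here; Atp5b, Atp5s, Idh3b, Idh3g and the opposite-strand partners were added after their values were seen. Alternatives were another pseudocount, other filters, FPKM, quantile and median-ratio scaling, Rpph1 left out, a replicate block, each library left out and, chosen after seeing the data, centred changes. Leaving out mitochondrially encoded genes came to leaving out Rpph1 alone. Promoter sequences are those of RefSeq (GRCm38.p6).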

Additional observations from a re-analysis of the deposited data

How the results depend on the processing

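Calls in either direction fell most with no filter on low genes. There 1026 of all genes were lower and 1357 higher, and of the members 0 lower and 25 higher (complex I 8, complex II 1, complex III with cytochrome c 5, complex IV 3, complex V 8 higher, and 0 lower in complexes III and IV). With 1 library left out, genes lower in knockout numbered 1088 to 1450 and genes higher 2005 to 2242, with the lowest counts of lower genes without control replicate 1 (1088) or 2 (1128). In these fits 51 to 55 members were higher and 1 to 3 lower, with complex II at 1 to 4 higher, complex III with cytochrome c at 0 lower, and complex IV at 1 to 3 lower.

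Scaling moved the split of calls over all genes, from 1940 lower and 3331 higher to 2391 and 2575 under median-ratio scaling, 2296 and 2608 under quantile normalization, 2312 and 2748 without Rpph1, and 2486 and 2476 with changes centred on their median, an alternative chosen after seeing the data. The median of all genes then moved from 0.09 to 0.01, 0.03, 0.03 and 0, and that of the members from 0.46 to 0.38, 0.31, 0.39 and 0.37. Members higher numbered 58, 51, 60 and 55 there. Members lower numbered 5 under median-ratio scaling, without Rpph1 and with centred changes, with complex V at 1. Complex I had 1 lower member under these 3, FPKM, quantile normalization and the replicate block, and complex II had 2 higher under quantile normalization. Without the lineage isoforms the summed level in knockout was 17034 TPM. No called member turned sign in any fit. Among members not called, Cox7a1 turned from −0.41 to 0.13 without knockout replicate 2, Uqcrfs1 and Ndufv3 turned under scalings (Uqcrfs1 also without control replicate 1), and Ndufb11 without control replicate 2 or knockout replicate 1. The cause of these moves was not tested.

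Replicate numbers do not pair the libraries by any label, and deviations of same-numbered libraries correlated at 0.00432 across genes. With a replicate block 1798 genes were lower and 3072 higher, 3 members were lower and 64 higher, and complex III with cytochrome c had 0 lower. Members not called without the block but called with it were Ndufs5 (higher, limma adjusted p = 0.00857), Atp5d (higher, 0.0310) and Ndufa6 (lower, 0.0237).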
